A study of Mus musculus with 24 samples.

Results

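Zscan4 and the other 2-cell genes described here are 10 mouse genes with their strongest known expression in the embryo at the 2-cell stage: Zscan4a, Zscan4b, Zscan4c, Zscan4d, Zscan4f, Tcstv1, Tcstv3, Usp17la, Zfp352 and Tdpoz3. Probes were taken by gene name from the design of the microarray, which holds 37074 names, and the 10 genes had 13 of its 56605 probes. They were selected on their signal in these same arrays, where they had been seen high in some samples and at background in others, so their levels are given as a description without a test.

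RNA from expanded blastocysts, the stage at which an outer trophectoderm encloses an inner cell mass, was measured on 24 arrays. The samples carried the condition codes HC1 to HC6, with 4 pools of embryos for each code, and the series title speaks of bisphenol A, a plastic monomer with estrogen-like activity, and of membrane estrogen receptors. A pool held 15 embryos, or 20 in HC6, so the HC6 code and the larger pool cannot be told apart. All pools were of frozen mouse blastocysts, and the treatment behind each code, the code of the control, the strain and the sex were not given in the sources used here.

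Zscan4 is a cluster of near-identical genes for a zinc finger protein with a SCAN domain. It is switched on when the embryonic genome is first transcribed, is then silenced, and returns in brief bursts in a small share of cultured embryonic stem cells, where it is known for telomere lengthening by recombination. Tcstv genes, Usp17l deubiquitinases (ubiquitin-removing enzymes), the zinc finger gene Zfp352 and the Tdpoz genes, with a POZ and a TRAF-like domain, belong to the same wave of transcripts, for which the homeobox factor Dux is a known activator.

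The probes of the Zscan4 copies are shown first, because what each can tell apart sets the meaning of its value. Each probe is a 60-base oligonucleotide printed 5′ to 3′ as the array design gives it, on mm9 coordinates. The Zscan4a probe (chr7:11379679-11379738) and the second Zscan4c probe (chr7:11595751-11595810) share a run of 53 bases, and capitals mark the 7 bases of each outside that run.
Zscan4a: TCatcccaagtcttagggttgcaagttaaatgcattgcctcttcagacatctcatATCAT
Zscan4c, second probe: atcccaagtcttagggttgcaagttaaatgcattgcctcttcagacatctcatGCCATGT
Apart from that pair, no probe on the array shared 20 or more consecutive bases with a member's probe. The remaining Zscan4 probes are printed with no capitals, since no run of theirs was shared.
Zscan4b: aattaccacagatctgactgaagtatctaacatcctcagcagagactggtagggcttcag
Zscan4c, first probe: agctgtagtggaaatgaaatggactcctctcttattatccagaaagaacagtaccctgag
Zscan4d: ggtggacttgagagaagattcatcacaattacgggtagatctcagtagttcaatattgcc
Zscan4f: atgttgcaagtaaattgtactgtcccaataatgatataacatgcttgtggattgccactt
These lie at chr7:11486107-11486166 for Zscan4b, chr7:11594425-11594484 for the first Zscan4c probe, chr7:11751301-11751359 for Zscan4d and chr7:11987608-11987667 for Zscan4f.

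The array's own annotation shows that most of these probes read several copies at once. The Zscan4b probe lists RefSeq transcripts of 4 genes, Zscan4b, Zscan4c, Zscan4d and Zscan4f. The Zscan4f probe also lists 4, those of Zscan4a, Zscan4c, Zscan4d and Zscan4f. The first Zscan4c probe lists 3, Zscan4a, Zscan4c and Zscan4d, and the second lists Zscan4a and Zscan4c. The Zscan4a probe lists Zscan4a and a predicted transcript that matched no symbol in the reference table. The probe named Zscan4d lists that predicted transcript alone, while the Zscan4d mRNA is listed on the Zscan4b, Zscan4f and first Zscan4c probes. A signal is therefore given here under the name of its probe and is not assigned to one copy. Whether a probe lies in a coding exon or in an untranslated region was not analysed here.

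Outside the Zscan4 cluster, the Tcstv3 probe also lists AF067061, a near relative in the same family, and the probes of Tcstv1, Usp17la, Zfp352 and Tdpoz3 list 1 gene each. The Usp17la probe lies at chr7:112011037-112011095 and the Tdpoz3 probe at chr3:93630980-93631039. The Tcstv3 probe was placed on an unassigned contig, and no position was listed for the Tcstv1 probe. The probes of Tcstv3 and Usp17la are printed because they gave the widest spread of signal outside the cluster.
Tcstv3: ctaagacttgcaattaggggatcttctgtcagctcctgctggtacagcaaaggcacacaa
Usp17la: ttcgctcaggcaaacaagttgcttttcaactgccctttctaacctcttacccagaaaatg

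On each array a probe carries a flag that says whether its spot was well above the local background, and this flag is what "detected" means here. Values are log2 of the processed signal minus the 75th percentile of the same array, so 0 is a probe at that percentile. The floor of an array is the lowest such value among its detected probes. Floors ran from -4.66 in HC6 replicate 4 to -2.11 in HC1 replicate 1. A value of an undetected probe is only a bound.

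Zscan4 signal was found on few arrays and in few conditions. The probes of Zscan4a, Zscan4b and Zscan4f were each detected on the same 4 arrays of 24: HC2 replicates 1 and 4 and HC6 replicates 3 and 4. On those arrays the Zscan4f probe had normalized log2 values of -0.38, -0.92, 4.12 and -1.26, in that order. In the other pools of HC2 and HC6 it was at -3.21, -4.87, -3.95 and -4.50, none of them detected. In HC1 it ran from -5.16 to -4.27, in HC3 from -5.00 to -4.67, in HC4 from -5.20 to -4.93 and in HC5 from -4.66 to -4.01, with 0 of 4 arrays detected in each. The 4 detected arrays thus lay above all 20 others, and HC6 replicate 3 stood above the remaining detected arrays by more than 4 log2 units.

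Signal strength differed among the 4 arrays. The Zscan4f probe was 285-fold above the floor of its array in HC6 replicate 3 and 10.6-fold in HC6 replicate 4. In HC2 it was 3.91-fold above the floor in replicate 1 and 4.32-fold in replicate 4. These folds depend on the floor of each array and do not rank the pools by signal. By normalized value HC6 replicate 4, at -1.26, was the lowest of the 4 arrays, and its floor was the lowest too. Zscan4b, on a probe that shares most of its listed transcripts, read 4.06 in HC6 replicate 3, -1.10 in HC6 replicate 4, -0.36 in HC2 replicate 1 and -0.85 in HC2 replicate 4. Zscan4a, whose RefSeq transcript is non-coding, read 2.97, -2.86, -1.18 and -2.75 in the same pools. In each of these probes HC6 replicate 3 was the highest array.

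**Figure D1:**
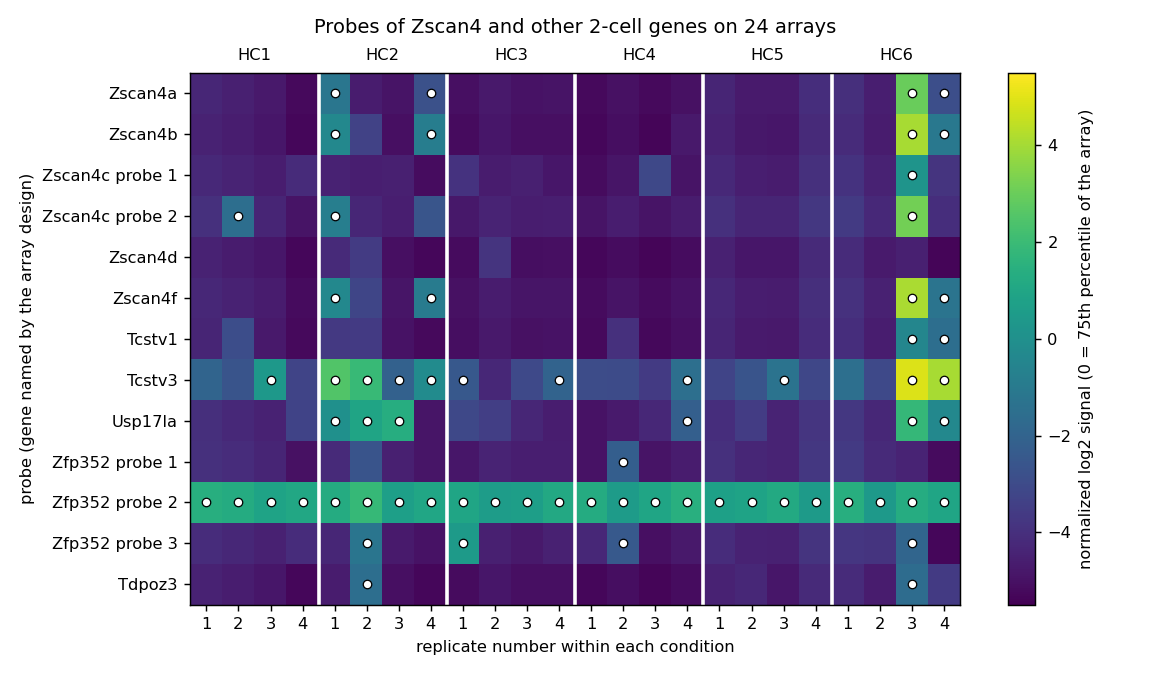
Normalized log2 signal of the 13 member probes (vertical axis) on the 24 arrays (horizontal axis, replicates within HC1 to HC6), with 0 at the 75th percentile of an array. White circles mark spots well above background: the Zscan4a, Zscan4b and Zscan4f probes carry them on the same 4 arrays, and Zfp352 probe 2 on all 24.

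The pair of probes with a shared run did not light up together everywhere. The second Zscan4c probe was detected on 3 arrays, at -0.78 in HC2 replicate 1, 3.15 in HC6 replicate 3 and -1.51 in HC1 replicate 2. Both probes of the pair were detected on 2 arrays. In HC1 replicate 2, where the second Zscan4c probe was detected, the Zscan4a probe read -4.53 and was not. In HC2 replicate 4 and HC6 replicate 4, where Zscan4a was detected, the second Zscan4c probe read -2.61 and -4.07 and was not. By this flag a shared stretch of 53 bases did not bring the same set of detected arrays. In HC2 replicate 4 the undetected second Zscan4c probe read above the detected Zscan4a probe, at -2.75, and above the floor of -3.04. There the pair differed in the flag and not in a lower signal of the undetected probe. In HC6 replicate 4 the second Zscan4c probe also lay above the floor, which was -4.66.

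The first Zscan4c probe was detected in HC6 replicate 3 alone, at 0.20. Its other 23 values lay between -5.18 and -3.12. The probe named Zscan4d was detected on 0 of 24 arrays, with a highest value of -3.57 in HC2 replicate 2. Since the mRNA of Zscan4d is listed on other probes, this says nothing about that gene. In all, 5 of the 6 Zscan4 probes were detected in HC6 replicate 3, 4 in HC2 replicate 1, 3 in each of HC2 replicate 4 and HC6 replicate 4, 1 in HC1 replicate 2 and 0 on the other 19 arrays.

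Tcstv3, a gene of the Tcstv family of 2-cell transcripts, was detected on more arrays. Its probe was detected on 11 arrays, with 4 of 4 in HC2, 2 in each of HC3 and HC6, and 1 in each of HC1, HC4 and HC5. In HC2 the values for replicates 1 to 4 were 2.50, 1.93, -2.08 and -0.18. In HC6 they were -1.49, -3.06, 4.94 and 4.07, the first pair not detected. Between the brighter and the dimmer HC6 pools lay more than 5 log2 units, so the pools of this code were split.

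In HC1 the Tcstv3 values were -1.96, -2.63, 0.36 and -3.23, with replicate 3 detected. HC3 ran from -4.27 to -1.99, HC4 from -3.64 to -1.49 and HC5 from -3.24 to -1.32. HC6 replicates 3 and 4, at 504-fold and 426-fold above their floors, and HC2 replicates 1 and 2, at 28.6-fold and 34.7-fold, were the highest of the 24. By normalized value HC2 replicate 1, at 2.50, lay above replicate 2, at 1.93, and the floors reverse that order in the folds. Of these, HC2 replicate 2 had no detected Zscan4 probe. Tcstv1, a sister gene on a probe that lists 1 gene, was detected on 2 arrays only, at -0.46 in HC6 replicate 3 and -1.52 in HC6 replicate 4, and its other values ran from -5.26 to -2.90.

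Usp17la, a deubiquitinase gene, was detected on 6 arrays that overlapped those of Zscan4 in part. In HC2 its values were 0.02, 0.91, 1.36 and -4.90, with the first 3 detected. In HC6 they were -3.73, -4.29, 1.82 and -0.36, with replicates 3 and 4 detected. HC4 replicate 4 was the other detected array, at -2.15. HC2 replicate 4, detected with 3 Zscan4 probes, thus gave no detected Usp17la signal, while HC2 replicate 3, with 0 Zscan4 probes, was above every array for Usp17la except HC6 replicate 3.

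Zfp352 behaved differently according to the probe. Its 3 probes list the same single transcript and lie within one stretch of chromosome 4. The probe with the highest coordinates (chr4:89892270-89892329) was detected on all 24 arrays, with a mean of 1.02 ± 0.35 (SD, n = 24) and a range from 0.41 in HC6 replicate 2 to 1.86 in HC2 replicate 2. The condition means of that probe ran from 0.83 ± 0.28 in HC5 to 1.21 ± 0.48 in HC2 (SD, n = 4 each), a gap smaller than the SD in HC2. It is the only member probe detected on every array.

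The middle Zfp352 probe (chr4:89891912-89891971) was detected on 4 arrays: at 0.50 in HC3 replicate 1, -1.21 in HC2 replicate 2, -1.91 in HC6 replicate 3 and -2.41 in HC4 replicate 2. The probe with the lowest coordinates (chr4:89891441-89891500) was detected on HC4 replicate 2 alone, at -2.20. Levels of different probes were not set against each other. The steady signal of Zfp352 therefore rests on 1 probe of 3. Tdpoz3, a POZ-domain gene, was detected on 2 arrays, at -1.54 in HC2 replicate 2 and -1.61 in HC6 replicate 3.

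Read by pool rather than by gene, HC6 replicate 3 had detected probes under 9 of the 10 member names, from 11 of the 13 probes. HC2 replicate 1 and HC6 replicate 4 followed with 7 names each, HC2 replicate 4 with 5, and HC2 replicate 2 with 4. The other 19 pools had 1 to 3 names. These are counts of probe names and not of expressed genes. Most Zscan4 probes list transcripts of several copies, Zscan4d among them, so their names are not separate genes. Of the 10 member probes detected on 1 to 6 arrays, 9 were detected in HC6 replicate 3, 5 in HC2 replicate 1 and 5 in HC6 replicate 4. Over the 14068 probes of the array detected on 1 to 6 arrays, the shares in these pools were 9.55%, 3.01% and 15.8%. The members were picked for this pattern, so the contrast describes them and supports nothing.

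Pools from the same code were thus unlike each other. For Zscan4f, condition means were -1.40 ± 3.94 in HC6, -2.35 ± 2.08 in HC2, -4.40 ± 0.31 in HC5, -4.64 ± 0.38 in HC1, -4.86 ± 0.14 in HC3 and -5.06 ± 0.13 in HC4 (normalized log2, SD, n = 4 each). HC6 and HC2 are neighbours in that order and differed by less than the SD of either. The last 4 means come from undetected spots, so their order is not one of expression. For Tcstv3 the means were 1.12 ± 3.98 in HC6, 0.54 ± 2.09 in HC2, -1.86 ± 1.57 in HC1, -2.60 ± 0.89 in HC5, -2.77 ± 0.91 in HC4 and -2.95 ± 0.98 in HC3, and no neighbours in that order differed by more than the larger SD except HC2 and HC1, by more than the SD of 2.09.

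Usp17la had means of -0.65 ± 2.88 in HC2 and -1.64 ± 2.89 in HC6, against -4.02 ± 1.28 in HC4, -4.0 ± 0.51 in HC1, -3.96 ± 0.37 in HC5 and -3.88 ± 0.71 in HC3. Where all 4 pools of a code were undetected, the fold is given as a bound for the dim code. It sets the brighter mean against the mean, over the dim code's arrays, of the floor or of the probe's own value, whichever was higher. The brighter mean keeps the measured values of its own undetected pools. "At least" therefore refers to the dim code alone, and the fold is not a strict lower limit. On that footing Zscan4f in HC6 was at least 5.01-fold above HC4, 4.32-fold above HC3, 2.68-fold above HC1 and 2.65-fold above HC5. The order of these codes follows their floors, with bounds from -3.72 in HC4 to -2.80 in HC5. In HC2 it was at least 2.60-fold above HC4 and 1.37-fold above HC5. For Usp17la, HC2 was at least 5.85-fold above HC3, 4.44-fold above HC5 and 3.94-fold above HC1. Each of these means is carried by the 2 or 3 detected pools of the brighter code.

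**Figure D2:**
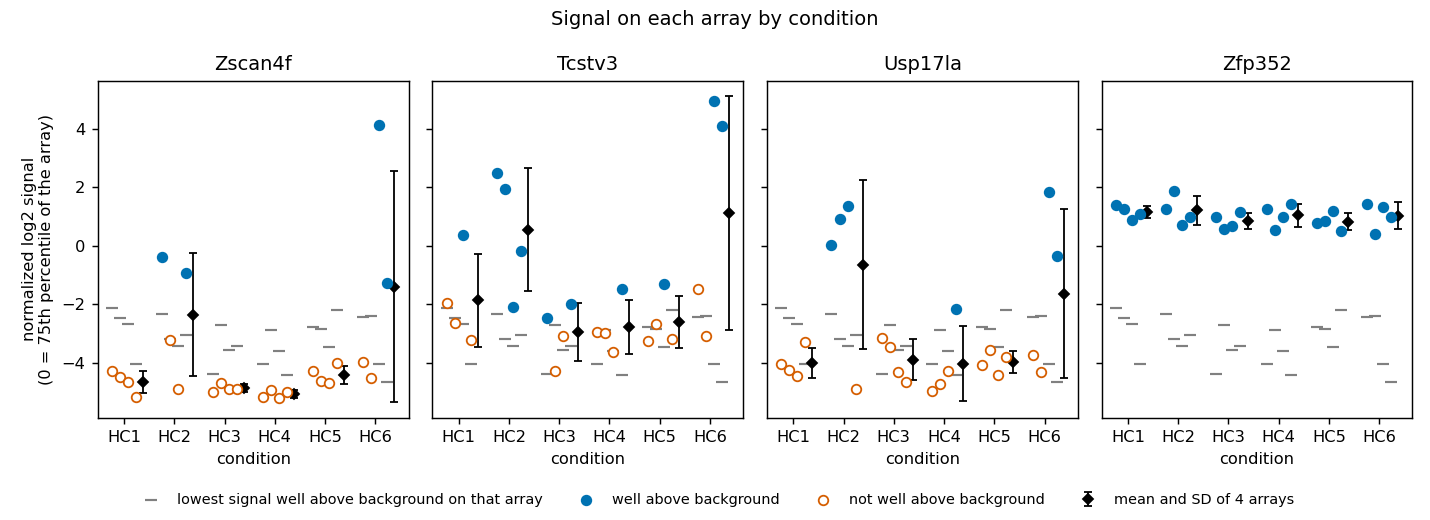
Normalized log2 signal (vertical axis) of the Zscan4f, Tcstv3, Usp17la and brightest Zfp352 probes in HC1 to HC6 (horizontal axis), 1 point for each array, filled where the spot was well above background, with a grey dash at that array's floor and the mean with SD in black. HC2 and HC6 each hold both bright and undetected pools for Zscan4f, and the SD of 3.94 in HC6 spans most of the axis, while Zfp352 stays between 0.41 and 1.86.

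The test across the array called no probe for any condition. A linear model of 6 condition means (limma, Benjamini-Hochberg adjustment at 0.05 over 27078 probes that passed the filter on dim probes) called 0 probes in the F-test, which is 0% of those tested, with 649 at an unadjusted p under 0.05. For each code against the mean of the other 5, limma also called 0 probes, or 0%, with 479 (HC3) to 1625 (HC5) at an unadjusted p under 0.05. The smallest adjusted p from limma was 0.299, for HC5. Of the 13 member probes 7 passed the filter and 0 of the 7 were called in any of these comparisons. The members were selected on these same arrays, and the Zscan4a, Zscan4b and Zscan4f probes passed the filter through the 4 arrays where they are high, so nothing is read from that count. The other 6, among them both Zscan4c probes and those of Zscan4d, Tcstv1 and Tdpoz3, were detected on fewer than 4 arrays and so were not tested. No label says that pools of a code came from separate animals, so the spread between pools may be in part technical.

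As differences of a code from the mean of the other 5, on the log2 scale, Zscan4f was at 2.86 in HC6 and 1.73 in HC2. Tcstv3 was at 3.04 in HC6 and 2.36 in HC2, Usp17la at 1.66 and 2.85, and the brightest Zfp352 probe at 0.02 and 0.23. Single pools carried much of this. Without HC6 replicate 3 the HC6 difference was 1.02 for Zscan4f, 1.77 for Tcstv3 and 0.51 for Usp17la. Leaving out HC2 replicate 1 brought Zscan4f in HC2 to 1.07, and leaving out the dim HC6 replicate 2 brought Usp17la in HC6 to 2.55. For Zfp352 the HC2 difference was 0.01 without HC2 replicate 2, and the HC6 difference turned to -0.11 without HC6 replicate 1.

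The arrays lay on 3 slides, and within each slide the differences changed with the pools it held. For Zscan4f in HC6 they were 0.17, 4.58 and 2.82 on slides 1 to 3, and in HC2 2.76, -1.03 and 3.22. For Tcstv3 they were 0.26, 3.14 and 6.11 in HC6, and 4.70, -0.48 and 1.02 in HC2. For Usp17la they were -0.56, 1.81 and 3.67 in HC6, and 4.47, 4.93 and -1.78 in HC2. The 4 arrays with 3 or more Zscan4 probes were spread over slides 1, 2 and 3. The size also followed the background treatment: with normexp background correction and quantile normalization Zscan4f was at 1.34 in HC6 and 0.30 in HC2, and Usp17la at 0.55 and 1.04.

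The authors' deposited table of log2 values holds 7 of the 13 member probes among its 27101. In the authors' deposited table Zscan4f read 10.7 in HC6 replicate 3, 6.18 in HC6 replicate 4, 6.65 in HC2 replicate 1 and 6.35 in HC2 replicate 4. The same deposited table put Tcstv3 at 11.4 and 10.4 in HC6 replicates 3 and 4 and at 8.92 and 8.55 in HC2 replicates 1 and 2. On the other arrays the deposited values of Zscan4f ran from 4.59 in HC4 replicate 3 to 5.38 in HC2 replicate 2. Those of Tcstv3 ran from 5.31 in HC4 replicate 1 to 7.12 in HC1 replicate 3. The arrays that were high in the scanner signals were thus the highest in the authors' deposited table too.

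Probes outside the member list were ranked by how closely their detected arrays matched those of Zscan4. The reference was the 4 arrays on which at least 2 Zscan4 probes were detected, and likeness was the Jaccard index, the number of arrays in both sets over the number in either, across 24 arrays. The Zscan4a, Zscan4b and Zscan4f probes have an index of 1 by construction, and 0 of the other probes reached it. An index of at least 0.8 was reached by 2 probes that are not members, at least 0.75 by 9, and at least 0.6 by 29. The 12 most like are named, with the names that the array design gives.

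Gm4340 and Gm21319 led, each with an index of 0.8, detected on all 4 reference arrays and on HC2 replicate 2. The Gm4340 probe (chr10:103633507-103633566), for a predicted gene from the fixed list of 2-cell transcripts, read 5.12 in HC6 replicate 3, 1.25 in HC6 replicate 4, 1.96 in HC2 replicate 1 and -0.08 in HC2 replicate 4. Its highest value, 5.27, was in HC2 replicate 2, a pool with no detected Zscan4 probe. Gm21319 (chr12:89265932-89265991) was likewise highest in HC2 replicate 2, at 2.37, with 1.46 in HC6 replicate 3. Neither was detected elsewhere.

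An index of 0.75 was shared by 7 probes, each detected on 3 of the 4 reference arrays and nowhere else. They were BC061212, A430089I19Rik (now Pramel39, of the PRAME-like family), AF067061 on a second probe of that gene, 3 predicted genes known by transcript number (ENSMUST00000098289, ENSMUST00000086050 and ENSMUST00000163216), and the unnamed feature NAP057945-1. All but NAP057945-1 missed HC2 replicate 4, and NAP057945-1 missed HC2 replicate 1. Of the 7, 5 lie between 94731576 and 96161200 on chromosome 5 of mm9. The A430089I19Rik probe read 2.84 in HC6 replicate 3, 1.04 in HC6 replicate 4 and -0.70 in HC2 replicate 1.

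The last 3 of the 12, at 0.67, were Gm5039, Gm8300 and Ercc5, each detected on the 4 reference arrays, on HC2 replicate 2 and on 1 more. The probe of Ercc5, a DNA repair nuclease gene, peaked at -0.53 in HC6 replicate 3. When arrays with at least 1 Zscan4 probe formed the reference, 9 of these 12 were named again. With the less strict flag of the same files 2 of the 12 were named again.

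**Figure D3:**
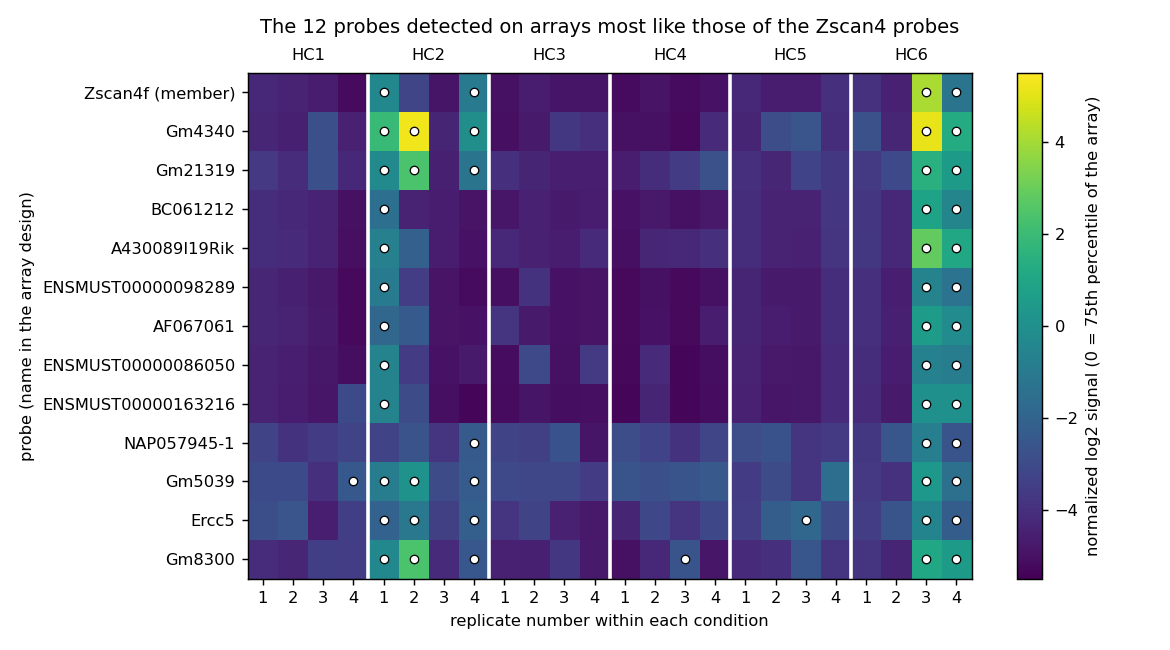
Normalized log2 signal (colour) on the 24 arrays (horizontal axis) of Zscan4f and of the 12 probes from outside the member list with the highest Jaccard index (vertical axis), with white circles where a spot was well above background. The probes were picked to match 4 arrays of HC2 and HC6, so circles in those codes follow from the choice; Gm4340 has its highest value, 5.27, in HC2 replicate 2, where Zscan4f has none.

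The wider set of 2-cell transcripts was followed with a fixed list of 47 further genes, 32 of which were on the array. Of the 32, 10 were detected on all 24 arrays and 22 on fewer. Among those 22, 18 were detected in HC6 replicate 3, 18 in HC2 replicate 2, 16 in HC6 replicate 4, 12 in HC2 replicate 1 and 7 in HC2 replicate 4. Every other pool had 0 to 6. Over all probes detected on 1 to 6 arrays, the shares in these 5 pools were 9.55%, 11.3%, 15.8%, 3.01% and 10.8%. The 22 genes are a wider set, with Ddit4l detected on 16 arrays and B020004J07Rik on 12. These shares are therefore not a like background and run low for such genes. HC2 replicate 2 therefore matched HC6 replicate 3 in the number of 2-cell genes detected but had 0 of 6 Zscan4 probes by this flag. That contrast depends on the flag: under the less strict flag of the same files, the Zscan4b, Zscan4d and Zscan4f probes were positive in HC2 replicate 2, with Zscan4f at -3.21 against a floor of -3.19. The highest array was HC6 replicate 3 for 10 of the 22 genes and HC2 replicate 2 for 8, against 4.42% and 3.81% of the 27078 probes that passed the filter. Some of the 22, such as Tdpoz4, did not pass that filter.

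The list's medians followed the pools with signal. Over its 25 tested genes the median difference from the other 5 codes was 0.89 in HC6 and 0.54 in HC2 (log2), against -0.01 and -0.02 over all 27078 probes. In HC2 22 of the 25 lay above 0 and in HC6 21, against 43.3% and 47.2% of all probes, and limma called 0 of the 25. Both medians stayed above 0 under the other scalings, down to 0.35 in HC6 and 0.16 in HC2 with normexp and quantile normalization. They rested on single pools, at 0.23 in HC6 without its replicate 3, 0.59 without its replicate 4, and 0.16 in HC2 without its replicate 2. Gm4340, Usp17lc and Gm12794 were detected only in pools of HC2 and HC6, so they passed the filter through the codes where they are high. The list was also chosen with earlier results of these data known. Its medians and counts therefore describe these pools, and nothing further is read from the contrast with all probes. The 4 genes of smallest F-test p were Gm4340, BB287469, Gm8300 and Gm2016, and those of highest index were Gm4340, BC061212, Gm8300 and, equal at 0.6, Usp17lc and Gm12794. BB287469, detected on 11 arrays, had its highest value of 4.00 in HC2 replicate 2, and Gm2016, detected on all 24, ran from 1.46 to 4.44, again highest in HC2 replicate 2. The summed signal of the whole list is not used, since the immune gene Sp110 alone made up 58.5% to 85.8% of it.

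Relatives of single members were looked at after their values were seen. Usp17lc, a sister of Usp17la, was detected in HC2 replicates 1 and 2 and HC6 replicates 3 and 4, with 1.72 in HC6 replicate 3. Usp17ld was detected on 7 arrays and peaked in the same pool at -1.35, while Usp17le was detected on 4 and peaked in HC6 replicate 2 at -0.15. In the Tdpoz family, Tdpoz1, Tdpoz2 and Tdpoz4 were all highest in HC2 replicate 2, at -0.84, 0.92 and -0.62, which was also the highest array of Tdpoz3.

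Known regulators were mostly detected on every array. Of 11 activators on the list 9 were on the array and 5 were detected on all 24 arrays: Dppa2 and Dppa4, chromatin factors known to activate Dux, Nelfa, Nr5a2 and the histone demethylase Kdm5b. The probes of Dux and Obox5 were detected on 0 of 24 arrays, with highest values of -3.46 and -3.23, and the Obox3 probe on 1. Obox1, a homeobox gene, was detected on 8 arrays and ran from -4.16 to 0.42, highest in HC5 replicate 3, with an SD of 1.01 over the 24 arrays. Nr5a2, a nuclear receptor, ran from 3.43 to 4.14 and Kdm5b from 4.52 to 5.26. The summed linear signal of the activators ran from 52.2 to 80.7 and was highest in HC6 replicate 3, as were Dppa2, Dppa4 and Kdm5b singly. Nelfa and Nr5a2 were highest in pools of HC1. In that sum HC6 replicate 4 ranked 9, HC2 replicate 1 ranked 10 and HC2 replicate 4 ranked 19 from the highest. Of the 24 repressors, such as Trim28, Kdm1a, Setdb1 and the subunits Chaf1a and Chaf1b of chromatin assembly factor 1, 23 were detected on all 24 arrays and Pcgf6 on 23. The repressors of smallest F-test p, Pcgf6, Ehmt2, Rif1 and Mga, each spanned less than 1 log2 unit over the 24 arrays, and limma called 0 of the 24 repressors and 0 of the 6 tested activators.

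The start regions of the Zscan4 copies are printed to show how alike the copies are. RefSeq's table on GRCm38.p6 held the window from 250 bases before to 50 after the start for 6 of the 10 members: Zscan4b, Zscan4c, Zscan4d, Zscan4f, Usp17la and Zfp352. The windows of Zscan4c (chr7:11005495-11005794, plus strand) and Zscan4d (chr7:11166099-11166398, minus strand) are shown 5′ to 3′, with capitals for the matches to 2 motifs.
Zscan4c: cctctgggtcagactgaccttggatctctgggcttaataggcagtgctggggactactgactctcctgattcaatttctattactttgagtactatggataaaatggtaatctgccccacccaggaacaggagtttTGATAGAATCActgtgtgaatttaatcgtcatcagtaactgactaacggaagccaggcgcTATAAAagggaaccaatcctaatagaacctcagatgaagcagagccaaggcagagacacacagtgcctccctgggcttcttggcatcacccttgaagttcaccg
Zscan4d: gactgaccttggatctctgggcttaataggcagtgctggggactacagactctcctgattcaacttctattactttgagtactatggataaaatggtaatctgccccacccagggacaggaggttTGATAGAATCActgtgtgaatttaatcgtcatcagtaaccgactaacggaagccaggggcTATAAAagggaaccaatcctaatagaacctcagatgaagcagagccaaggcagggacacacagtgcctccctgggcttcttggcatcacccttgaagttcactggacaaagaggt
The motifs searched on both strands were the repeat described for Dux, TGATT and after any 2 bases ATCA, and the box TATAAA, and they did not overlap in any window. Each of the 4 Zscan4 windows held each motif in 1 place. The first began 91 bases before the start in Zscan4b and Zscan4f, 114 in Zscan4c and 125 in Zscan4d, and the second 31, 31, 54 and 65 bases before it.

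The Dux repeat was held by 68 of the 32851 promoter windows in the table, or 0.207%, and TATAAA by 13.6%. The windows of Usp17la and Zfp352 held neither in these letters. In alignments, identity was counted over every column where either window held a base, so ends not shared by both windows counted as differences. On that count Zscan4b and Zscan4f, with the motifs at equal distances from the start, were identical at 95.7% of columns (287 of 300). Zscan4c and Zscan4d were at 90.4%, and the other 4 pairs at 77.5% to 85.1%. In these 5 pairs the windows are shifted against each other, as in Zscan4c and Zscan4f with 275 of 323 columns. The percentages therefore do not rank the copies by likeness. The 4 matches are thus copies of 1 sequence and not 4 separate ones. A match is a description of the letters and not of a factor at the site.

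Marker genes were checked for the stage of the embryos. All 10 markers of the inner cell mass, all 12 of trophectoderm and all 10 of primitive endoderm were detected on all 24 arrays. Of 15 oocyte and zygote markers 2 were detected on all arrays and 5 on none (Zp1, Bmp15, Oosp1, Mos and Bcl2l10). Of 15 cumulus and granulosa markers 1 was detected on all arrays and 6 on none, including Amh and Fshr. Of 6 markers of 4-cell and 8-cell embryos 3 were on all arrays and 2, Klf17 and Spz1, on none.

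Beside the pools with Zscan4 signal, the summed linear signal of each marker list was as follows. Each sum is weighted towards the brightest genes of its list. The 4-cell and 8-cell list ran from 167 to 270 over the 24 arrays and was highest in HC6 replicate 4, while HC2 replicate 4 ranked 3, HC6 replicate 3 ranked 4 and HC2 replicate 1 ranked 15 from the highest. That sum mostly follows Fbxo15, with a mean log2 value of 7.47 against 4.64 for the next gene, Rpl39l. Fbxo15 was itself highest in HC6 replicate 4. Trophectoderm ran from 1636 to 2434, and HC6 replicate 3 was the lowest array. Among its genes Krt8, Eomes, Elf5, Tfap2c, Krt7, Dppa1 and Cldn4 were each lowest in that pool. Krt18, the brightest of the list, was lowest in HC1 replicate 4, and Cdx2, Gata3, Tead4 and Atp12a were also lowest in other pools. The inner cell mass list ran from 68.6 to 101, primitive endoderm from 131 to 259, oocyte and zygote from 2.81 to 5.99 and cumulus from 24.6 to 61.4, none with its highest or lowest array among the 4 except cumulus, lowest in HC6 replicate 4. The cumulus sum mostly follows Foxl2, with a mean log2 value of 5.14 against -1.40 for the next gene, Inhbb. Foxl2 was itself lowest in HC6 replicate 4. The share of spots well above background was 42.6%, 47.7%, 45.3% and 49.7% on HC2 replicates 1 and 4 and HC6 replicates 3 and 4, the last being the highest of all arrays, where the range is 38.6% to 49.7%. The part of stage mixture or detection in the Zscan4 signal was not tested, and in pooled embryos a few cells with much RNA and many cells with little cannot be told apart.

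**Figure D4:**
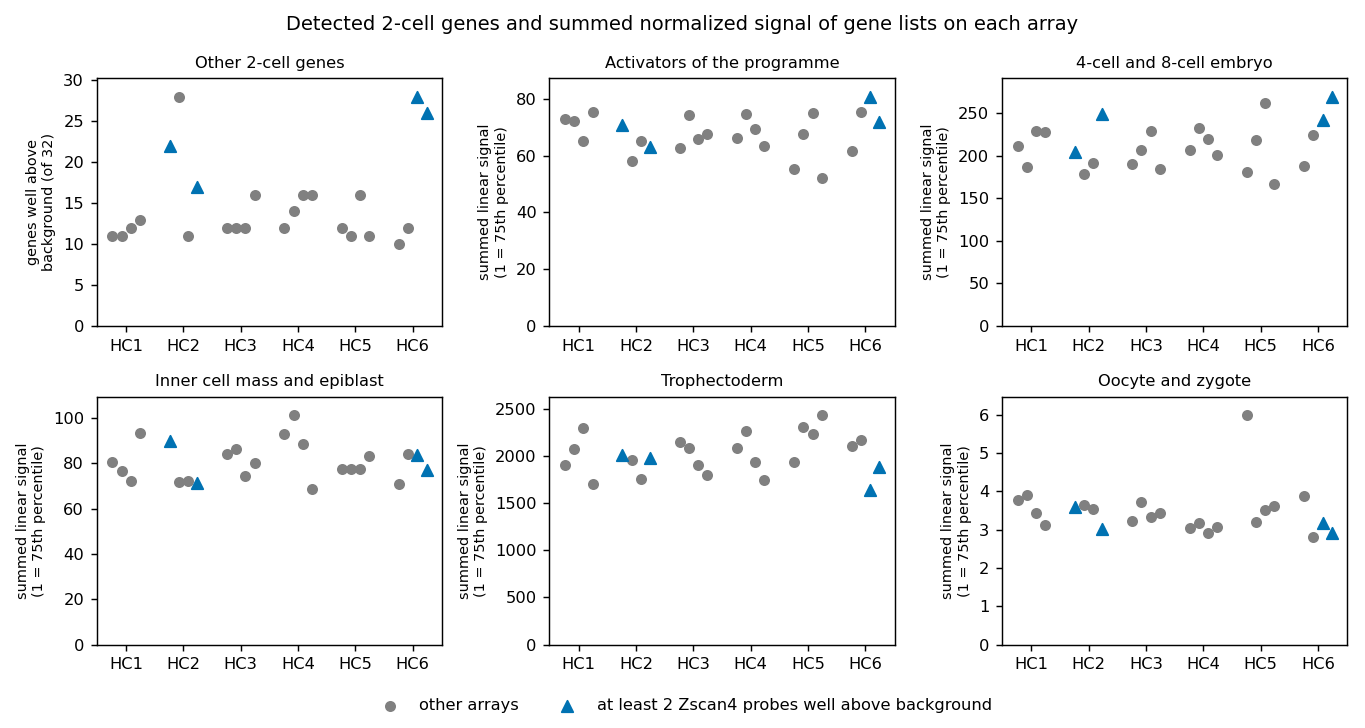
Number of the 32 other 2-cell genes well above background (first panel) and summed linear normalized signal of 5 gene lists (other panels, 1 = 75th percentile of an array) on each array, by condition. Blue triangles are the 4 arrays with at least 2 detected Zscan4 probes; in the first panel HC2 replicate 2, at 28 genes, lies as high as HC6 replicate 3 without being one of them.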

How the data were processed

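Each of 24 pools of mouse blastocysts was hybridised to its own 1-colour Agilent array from 2 ng of RNA, per the labels' protocols. The deposited scanner files hold linear intensity values and background flags. Per the headers they were written by version 10.10.1.1 of Feature Extraction. The authors' deposited table of log2 values is on a common scale whose exact normalization is not given in the sources used here. Its column values were read as log2 as deposited, and used as an alternative.

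Control and outlier spots were left out, and log2 processed signal had the array's 75th percentile subtracted. Probes well above background on at least 4 arrays, with at least 2 values in each condition, were fitted in limma 3.58.1 (R 4.3.3) as 6 condition means; the same code was tested on simulated data. Named are every member probe, the 12 probes most like Zscan4 in detected arrays, and up to 4 genes of each list by smallest p and by index; 1 gene is not reported here. Members, lists and rules were chosen with earlier results of these data known. Promoters were aligned with MAFFT 7.526. Alternatives were other normalizations, filters, slide and replicate terms, and leaving out arrays.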

Additional observations from a re-analysis of the deposited data

Results flagged for a closer look

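In 4 of the 60 sets of 4 replicates examined (10 genes in 6 conditions, 1 probe a gene), 1 pool stood apart from the other 3 by a gap, over the whole range, above Dixon's 95% critical value. Chance flags about 1 in 20 such groups, which is close to what was seen, and the members were selected on these same values, so the flags only describe them. The rule looks for 1 pool apart from 3. It cannot flag a code split into a brighter and a dimmer pair, as for Tcstv3 in HC6. The count therefore says nothing about such splits. The second Zscan4c probe in HC6 was at 3.15 in replicate 3, with the nearest pool at -3.65. Tdpoz3 in HC2 was at -1.54 in replicate 2, with the nearest pool at -4.68. The remaining pair were undetected spots: the Zscan4d probe in HC3 was at -3.85 in replicate 2, nearest -5.06, and Tcstv1 in HC4 was at -3.99 in replicate 2, nearest -5.04.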

How the results depend on the processing

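The count of probes called with any difference among conditions, 0, ran from 0 to 1 when each array was left out in turn, with 1 called without HC1 replicate 3. The counts for a code against the other 5 ran from 0 to 1 in HC1 (1 without HC1 replicate 3), 0 to 2 in HC4 (2 without HC4 replicate 4) and 0 to 1 in HC5 (1 without HC5 replicate 1), and stayed at 0 in HC2, HC3 and HC6. The authors' deposited values gave 1 call in HC2, and no filter on dim probes gave 1 call in HC5. The other normalizations, filters and slide terms run gave 0. With the replicate block all of these counts were 0. The replicate numbers were not taken to pair the pools, since not every same-numbered pair correlated above 0.1: the correlation ran from -0.27 to 0.30 over 60 pairs (median 0.01), and 24 were above 0.1. As a hint from the data, 14 of 24 arrays correlated best with a pool of their own number. All pools numbered 1 lay on slide 1 and all numbered 4 on slide 3.

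Detection depends on the flag. Under the less strict flag of the same files the Zscan4a probe kept 4 arrays, while Zscan4b had 6, Zscan4f 5, Zscan4c 7 and 5, Zscan4d 5, Tcstv3 24 and Usp17la 12. Against the 95th percentile of negative controls these were 4, 5, 5, 5 and 7, 3, 24 and 12. Dim spots and the number of arrays limit what can be told.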

Other observations

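Genes tied to telomeres and recombination, processes in which Zscan4 is known to act, were listed with 15 members, all on the array. Of these 11 were detected on all 24 arrays, and Spo11, the nuclease that starts meiotic recombination, on 0. The meiotic cohesin gene Smc1b, the member of smallest F-test p, was detected on 21 arrays and ran from -3.38 to 0.98, highest in HC6 replicate 3. Atrx, a chromatin remodeller, and Pot1a, a telomere-binding protein, spanned 2.37 to 3.13 and 1.65 to 2.63. Tert, the catalytic subunit of telomerase, was detected on 23 arrays between -1.93 and -0.73. The list's summed signal ran from 123 to 146, highest in HC6 replicate 3, and its median difference from the other codes was 0.06 in HC6 and -0.01 in HC2, against -0.01 and -0.02 over all probes. In limma 0 of its 14 tested genes were called.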
